A study of Mus musculus with 250 samples.

Results

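The genes described here encode the proteins of the cytosolic ribosome, and they were followed across 250 single cells, each titled as a brain astrocyte. The members are the rows of the count table whose names begin with Rpl or Rps and a number, 100 of 24490 rows. They comprised 74 canonical rows (44 of the large subunit, named Rpl, and 30 of the small subunit, named Rps), 9 rows named as paralogs, 11 genes that share the letters but encode no ribosomal protein, and 6 pseudogenes. The 74 canonical rows stand for 73 proteins, because Rpl30 has 2 numbered rows. The classes follow the names, and Rps4l, named like a paralog, is annotated as a transcribed processed pseudogene.

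The cells came from adult C57BL/6 mice of about 3 months with the genotype SM22-Cre;Rosa26-stop-tdTomato, in which Cre under a smooth muscle promoter switches on a red fluorescent reporter. All cells share that genotype and form 1 group with no treatment and no named animal. They were sorted into wells and their polyadenylated RNA was copied by the full-length Smart-seq2 method. The cell names carry 2 prefixes, called plate 2 (162 cells) and plate 3 (88 cells) here. Cells are not replicates of a condition, so no test was run, and each SD below is the spread between cells.

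The ribosome is a particle of ribosomal RNA and many different proteins, most present as a single copy in each particle, and it makes all cytosolic protein. Messenger RNAs of ribosomal proteins begin with a tract of pyrimidines, through which the kinase mTOR and the binding protein Larp1 control their translation together. These genes have given rise to many processed pseudogenes, intronless copies of the messenger RNA that were inserted elsewhere in the genome.

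A cell held a median of 282290 reads, with a range of 102161 to 564958, and the median was 256247 on plate 2 and 391072 on plate 3. The cells carried a median of 15 of 16 astrocyte markers at 10 CPM (reads per 1000000 reads of the cell) or more, and never fewer than 11. Markers of other cell types were lower than the summed astrocyte level of 52181 CPM: the summed mean was 913 CPM over 8 oligodendrocyte genes, 137 CPM over 9 neuronal genes, 150.4 CPM over 8 microglial genes, 103 CPM over 9 mural genes and 9.72 CPM over 7 endothelial genes. The smooth muscle gene Tagln, whose product is SM22, had 2.52 ± 16.1 CPM and reached 10 CPM in 5 cells.

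Because copies of these genes are so alike, stretches of coding sequence from 2 parent and pseudogene pairs are printed first. Each stretch is the 150 aligned positions that hold the most differences of its pair, with differing or missing bases in capitals. The stretch of Rpl14 covers bases 420 to 569 from the start codon, and that of Rpl14-ps1 lies at chr7:45325384-45325530 on the plus strand. The stretch of Rps15a covers bases 1 to 150, and that of Rps15a-ps6 lies at chr11:6172887-6173036 on the minus strand. Sequences and positions are from GENCODE M21 on GRCm38.
Rpl14: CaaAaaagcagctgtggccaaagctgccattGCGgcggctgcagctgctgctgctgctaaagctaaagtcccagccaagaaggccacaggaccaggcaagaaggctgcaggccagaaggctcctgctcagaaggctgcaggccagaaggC
Rpl14-ps1: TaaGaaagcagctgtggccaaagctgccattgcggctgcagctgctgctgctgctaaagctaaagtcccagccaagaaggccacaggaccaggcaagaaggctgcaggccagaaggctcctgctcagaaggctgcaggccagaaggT
Rps15a: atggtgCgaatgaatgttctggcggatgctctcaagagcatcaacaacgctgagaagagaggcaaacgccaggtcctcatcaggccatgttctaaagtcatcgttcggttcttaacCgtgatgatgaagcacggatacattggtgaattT
Rps15a-ps6: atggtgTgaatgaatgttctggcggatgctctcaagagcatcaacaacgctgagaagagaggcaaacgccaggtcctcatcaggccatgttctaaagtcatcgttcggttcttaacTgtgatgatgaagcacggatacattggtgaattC

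Within those stretches, Rpl14-ps1 differs from Rpl14 by the substitutions C420T, A423G and C569T and lacks 3 bases. Positions count from 1 at the parent's start codon, and the parent's base stands first. Over the aligned coding sequence, 644 of 648 bases were identical, and the longest identical run was 419 bases. Rps15a-ps6 carries C7T, C117T and T150C, and C7T turns codon 3 from CGA into the stop codon TGA. Its aligned coding sequence had 385 of 390 bases identical, with a longest identical run of 136 bases.

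Ribosomal protein genes took a very small share of the reads. The 74 canonical rows together held 68861 of 72773548 reads, which is 0.0946%. Their summed level was 963 ± 425 CPM per cell (SD, n = 250 cells), with a lowest cell of 175 CPM, a median of 889 CPM and a highest of 2938 CPM. The large subunit gave 523 ± 295 CPM and the small subunit 440.1 ± 295 CPM. The 77 genes of the mitochondrial ribosome, a separate particle with its own proteins, summed to 2524 ± 1033 CPM, and 29 translation initiation genes summed to 2623 ± 1025 CPM.

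Detection in most cells was about as common among canonical genes as among all genes, while a mean of 20 CPM was less common. Rpl4, Rps14, Rpl13a and Rps9 reached 10 CPM in at least 50% of the cells, 4 of 74 rows or 5.41%, beside 5.92% of all 16367 genes with reads. With 1 read as the threshold, 10 of 74 rows passed in 50% of the cells or more, against a background of 7.97% of all genes, and at 50 CPM it was 1 of 74, beside 4.28%, so the order of members and background turns with the threshold. A mean of 20 CPM was reached by 10 of the 74 rows (13.5%), beside 44.5% of all genes with reads. Another 37 rows reached 10 CPM in under 10% of the cells. The median canonical row reached 10 CPM in 26 cells, beside 20 cells over all genes with reads, so this sparseness is not particular to the members. The median CPM of a cell was above 0 for 10 rows, so most canonical rows had no read in the typical cell. Still, the median canonical row had reads in 81 of the 250 cells, beside 26 over all genes with reads. Cells held reads of 7 to 38 canonical rows, with a median of 20.

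**Figure D1:**
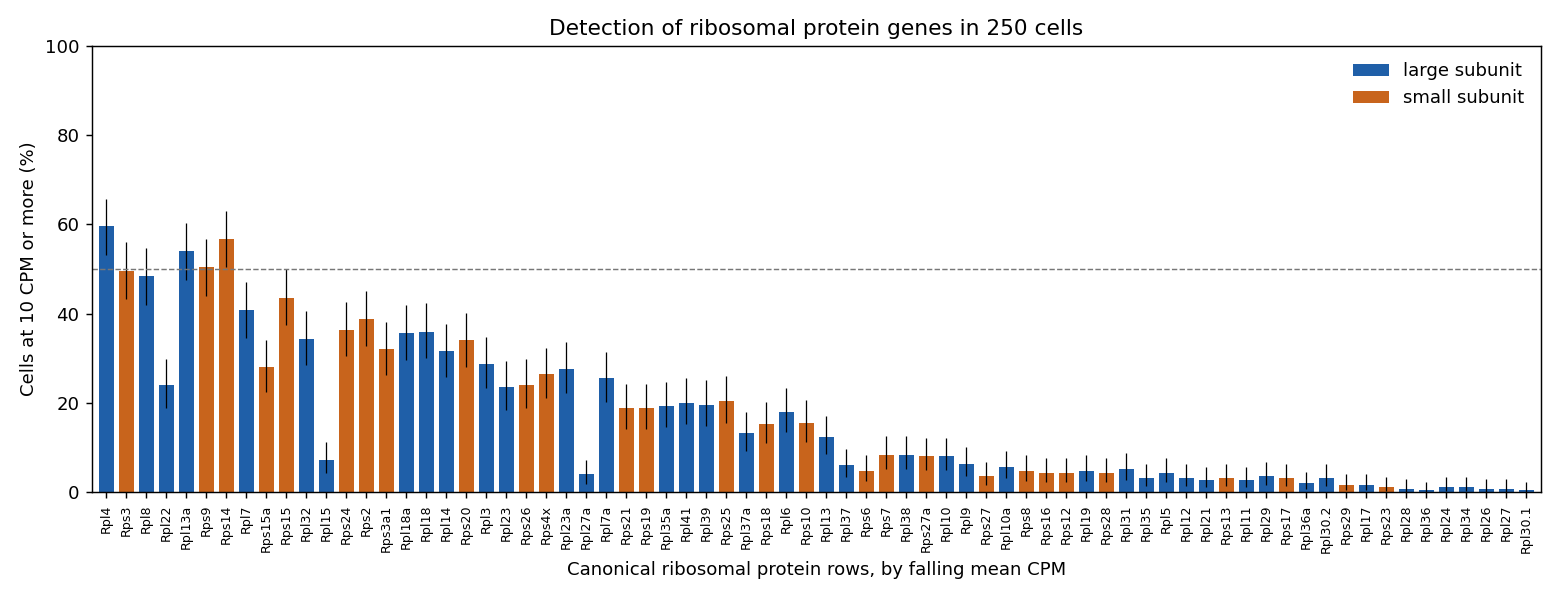
Share of the 250 cells at 10 CPM or more (vertical axis, percent) for 72 of the 74 canonical rows in order of falling mean CPM, with exact 95% binomial intervals as lines and the dashed line at 50%. Rpl4, Rpl13a, Rps9 and Rps14 pass the line, and the right-hand rows lie near 0.

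Rpl4, Rps3 and Rpl8 were among the highest rows. Rpl4, which lines the tunnel through which the new protein leaves the large subunit, had 167 ± 199 CPM, with a lowest cell of 0, a median of 93.0 and a highest of 823. It reached 10 CPM in 149 cells (59.6%, exact 95% interval 53.2 to 65.7%). Rps3, near the entry of the messenger RNA channel, had 106 ± 154 CPM with a median of 8.86 and a highest cell of 890.3. Rpl8, close to the catalytic centre, had 88.3 ± 131 CPM with a median of 7.09 and a highest cell of 932. The lowest cell was at 0 for each of them, so their ranges over cells overlapped, and their SDs exceeded their means.

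These genes were also often the highest in a given cell. Rpl4 was the highest canonical row in 83 cells, Rps3 in 43 and Rpl8 in 36. The highest row held a median of 32.1% of a cell's canonical sum, with a range of 13.1 to 75.2%. The genes lie apart in the genome, Rpl4 at chr9:64173375-64178666, Rpl8 at chr15:76904078-76906314 and Rps3 at chr7:99477896-99483738.

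Other rows with a mean of at least 20 CPM included Rpl22 (37.6 ± 122 CPM), Rpl13a (36.8 ± 59.0), Rps9 (36.2 ± 57.1), Rps14 (32.9 ± 41.1) and Rpl7 (27.0 ± 43.3). Rpl22 was reached in only 60 cells, while Rps14, a protein of the small subunit's platform, was reached in 142 cells at a similar mean. The 10 highest rows held 66.9% of the canonical CPM. The 54 rows in the middle had means from 0.613 CPM (Rpl30.2) to 19.8 CPM (Rps15a). They included Rpl3, which lies by the catalytic centre, with 9.52 ± 21.9 CPM in 94 cells with a read, and Rpl41, the shortest with 75 coding bases, with 6.22 ± 12.2 CPM in 123 cells. Rps27a, made as a fusion with ubiquitin, had 2.41 ± 9.24 CPM in 26 cells. A few rows rested on few cells, as Rpl15 had 16.6 ± 87.8 CPM with reads in 25 cells and Rpl27a 7.59 ± 52.6 CPM with reads in 18. At the lowest end, Rpl30.1, Rpl27, Rpl26, Rpl34, Rpl24, Rpl36, Rpl28, Rps23, Rpl17 and Rps29 had means of 0.151 to 0.603 CPM. Rpl27 had 13 reads in 8 cells, and Rps23, a protein of the decoding centre, had 28 reads in 16 cells.

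Levels of different genes were compared per kb of annotated exon. The median canonical gene had 3.66 CPM per kb (72 genes with a reference entry), 3.72 in the large and 3.48 in the small subunit. The same median was 4.33 over all genes with reads, 18.7 for the mitochondrial ribosome, 30.7 for initiation and 27.7 for elongation genes. Rpl4 (109 CPM per kb), Rpl8 (84.6), Rps3 (55.6), Rpl13a (31.6), Rps15 (28.7), Rps14 (25.6), Rpl7 (21.5) and Rps9 (20.7) were among the 10 highest. Rpl34 (0.149), Rpl27 (0.222), Rpl28 (0.242), Rpl26 (0.368) and Rpl21 (0.377) were the lowest.

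**Figure D2:**
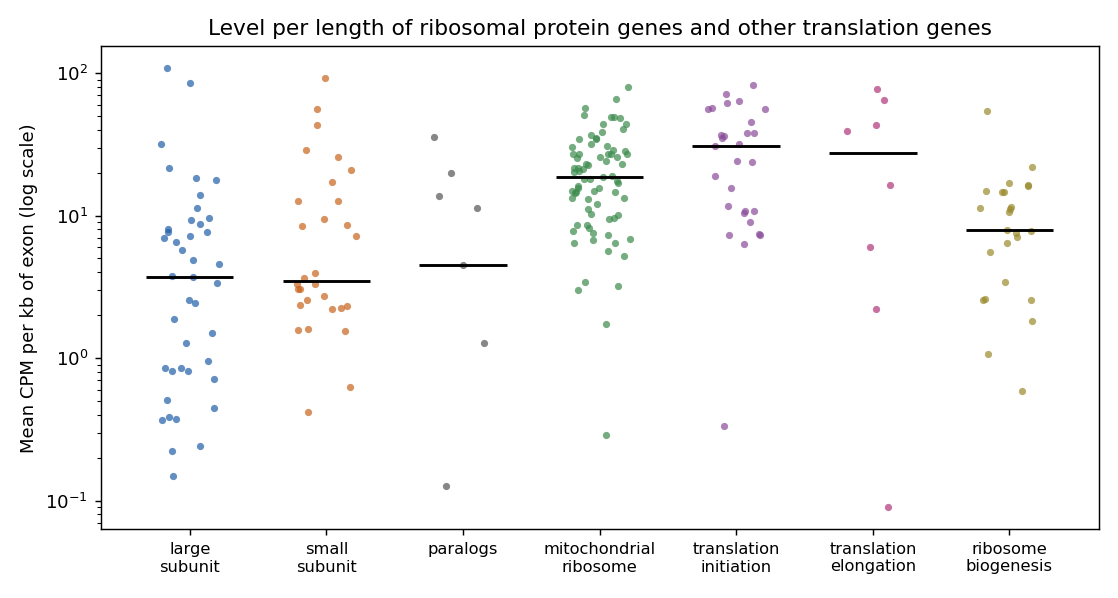
Mean CPM per kb of exon over 250 cells (log axis), 1 point per gene, for both subunits, the paralogs and other gene groups of translation, with the group median as a bar and genes at 0 not drawn. The medians of both subunits (3.72 and 3.48) lie below those of the mitochondrial ribosome (18.7) and initiation genes (30.7).

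How much of a gene's coding sequence is found elsewhere was measured as the percentage of its 50-base stretches that also occur in an annotated transcript of another gene or pseudogene. This measure was chosen after the levels had been seen. At least 50% of the stretches were shared in 61 of 72 canonical genes (84.7%), beside 5.58% of 20175 coding genes. The shares were 20.3% for Rpl4, 8.09% for Rps3 and 8.73% for Rpl8. These 3 genes had means of 88.3 to 167 CPM and held 37.5% of the canonical CPM. The 30 genes whose coding stretches were all shared had a median of 1.48 CPM and held 7.75%.

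Groups of genes with shares between those ends had medians between them. The median of the mean levels was 8.63 CPM in 3 genes with 50% to 75% shared and 6.39 CPM in 28 genes above that but under 100%. Of those with 25% to 50% shared, Rps21 had the lowest mean at 6.79 CPM and Rpl22 the highest at 37.6 CPM. All 11 genes under 50% were among the 13 highest by CPM per kb. Over the 72 genes, Spearman's rho of mean CPM with the share was -0.72, and Pearson's r of log2 mean CPM with the share was -0.73. Both are descriptions over genes that share libraries and are not independent. Per kb the rho was -0.70, and with coding length the mean CPM had a rho of 0.30. Rpl34 was an exception on the low side with 72.2% shared and 0.286 CPM, while Rpl7 had 77.5% shared and 27.0 CPM.

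**Figure D3:**
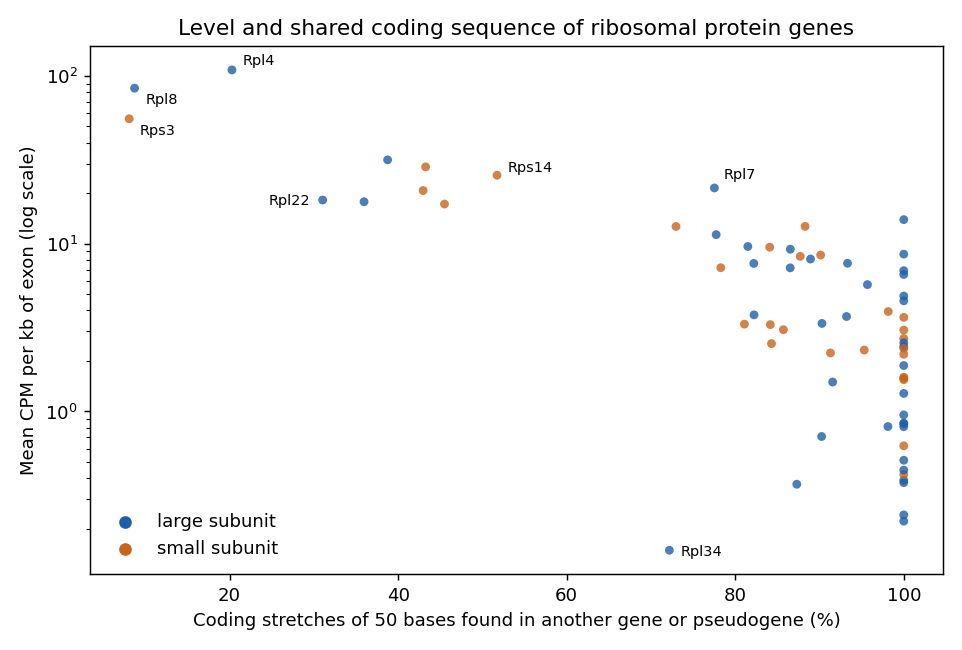
Mean CPM per kb of exon (log axis) against the percentage of 50-base coding stretches found in another annotated gene or pseudogene, 1 point per canonical gene (70 of 72 genes drawn). Rpl4, Rps3 and Rpl8 sit at the upper left, and the genes at 100% reach no higher than 13.9 CPM per kb.

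Other genes gave examples for and against this order. All coding genes, with or without reads, were grouped by their share. A mean of 20 CPM was reached by 39.1% of those with no shared stretch and by 2.99% of those with every stretch shared. The percentage with any read did not fall throughout, with 79.6% at no shared stretch, 44.5% at 25% to 50% shared and 53.3% at every stretch shared. The median level in the same groups was 8.32, 0 and 0.281 CPM. Of the ribosomal proteins whose names the rule does not take, Gnb2l1 (Rack1), with 1.44% shared, had 80.3 ± 155 CPM, while Rpsa and Fau, with 98.8% and 100% shared, had 1.75 and 2.25 CPM. Among the genes listed with elongation, Eef2, which moves the ribosome along, had 9.47% shared and 241 ± 259 CPM. Eef1g had 90.0% shared and 11.3 ± 19.7 CPM. Tpt1, which is in the list although its product is no elongation factor, had 100% shared and 2.81 ± 6.91 CPM. Against the order, Eef1a2, known from neurons and muscle, had 0% shared and 0.187 ± 1.18 CPM, the lowest of that list. Eef1a1, which delivers aminoacyl-tRNA, had 72.6% shared and 130.4 ± 111 CPM. The sources used here do not give how reads that fit several places were counted, and the part of that step in these levels was not tested.

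Genes of the pathway, most of them outside the members, were described from lists. Of 16 other genes whose messenger RNAs carry the pyrimidine tract, 13 had a mean of 20 CPM or more, beside 44.5% of all genes with reads. Eef2 and Eef1a1, 2 of the 16, were detected in 50% of the cells or more, against a background of 5.92%. Of 11 genes listed with the control of these messenger RNAs, 8 had a mean of 20 CPM, beside the same 44.5%. Rps6kb1 and Rps6kb2, which the name rule also takes and which are described below, are among these 8. The 8 also included Mtor itself (67.7 ± 166 CPM), its inhibitor Tsc2 (135 ± 263 CPM), its activator Rheb (100.3 ± 169 CPM) and Larp1 (44.5 ± 119 CPM). Below that mean were Eif4ebp2 (4.64 ± 32.6 CPM), Myc (2.95 ± 26.5 CPM) and Eif4ebp1 (0.472 ± 6.96 CPM). Of 25 ribosome biogenesis genes, 16 had that mean, again beside 44.5%, and nucleolin (Ncl) was highest at 140 ± 211 CPM.

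By rank, the sum over canonical rows was close to unrelated to the number of other genes detected in the cell. Spearman's rho was -0.0098 over 162 cells of plate 2 and 0.016 over 88 cells of plate 3, and Pearson's r was -0.16 and -0.17. Without the 2 cells farthest from the median number of genes, r was -0.13 on plate 2 and 0.040 on plate 3, so the value on plate 3 rests on those cells. The count of canonical rows with a read did rise with the number of other genes with a read, with a rho of 0.48 and 0.62, and both measures share the depth of the cell. When plate 2 was divided into 4 parts by genes detected, the 40 cells with fewest genes had a median of 17 rows with a read and a median sum of 1006 CPM. The 41 cells with most genes had 23 rows and 1046 CPM.

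Cells with very few genes lay mostly on the high side, a pattern picked out after the plot was seen. The 10 plate 2 cells with fewest genes (1263 to 1837) had sums of 802 to 2200 CPM with a median of 1374, beside 936 in the other 152 cells, and 9 of the 10 were above the plate's median. The 10 such cells of plate 3 had a median of 976, beside 783 in the other 78, and 7 were above the median. Their median depth was 254151 reads beside 256247 on plate 2, and 321246 beside 397380 on plate 3. The summed astrocyte markers of these cells had a median of 55042 CPM beside 51719 on plate 2, and 40414 beside 54948 on plate 3. The nuclear RNA Malat1 had a median of 15271 CPM in these cells beside 28716 on plate 2, and 74530 beside 25558 on plate 3, so it went opposite ways on the plates. The part of depth, of these markers and of Malat1 in the sums was not tested.

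**Figure D4:**
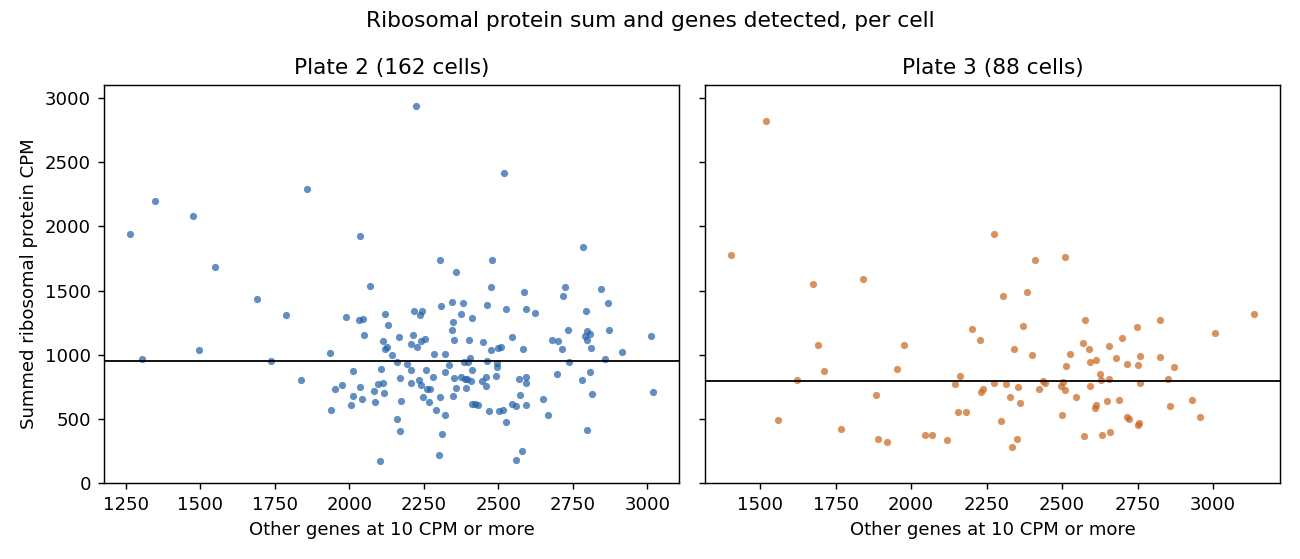
Summed canonical ribosomal protein CPM (vertical axis) against the number of other genes at 10 CPM or more (horizontal axis), 1 point per cell, plate 2 on the left and plate 3 on the right, with the plate's median sum as a line (948 and 792 CPM). The points form a cloud without a slope, and most cells at the far left lie above the line.

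The sums of the large and the small subunit had a rho over cells of -0.037 on plate 2 and 0.054 on plate 3. Single genes varied together only weakly. Of the 43 canonical genes detected in at least 5 cells of each plate, the 903 pairs had a mean rho of 0.021 and a median of 0.020, beside a median of 0.0045 over pairs of all 9225 genes that passed the same filter. A rho over 0.1 on both plates was found in 32 pairs (3.54%), beside 2.35% of all pairs. The 5 highest pairs by the lower plate were Rps3a1 with Rpl14 (0.15), Rpl13a with Rpl14 (0.14), Rpl18 with Rps26 (0.14), Rpl41 with Rpl35a (0.14) and Rpl37a with Rps4x (0.14). In counts this sparse such values are no finding, and the pair values of the 2 plates were themselves unrelated (correlation -0.00030).

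Outside the members, the 10 genes most like the canonical sum, by the lower plate's rho among 6365 genes, were Mt3 (0.27), Dnah7b (0.27), Atp5g3 (0.22), Fam50a (0.21), Dbi (0.21), Mt1 (0.20), Alg10b (0.19), Gclm (0.18), Aldoc (0.17) and Psmb1 (0.17). Mt3 and Mt1 encode metallothioneins, small metal-binding proteins, and were at 10 CPM or more in all 250 cells. Dbi, a binding protein of acyl-CoA, reached that level in 246 cells.

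The better detected members varied less between cells than most genes of their counted level. The squared coefficient of variation (CV, SD over mean) was set against its trend with mean level over 6381 genes on each plate. Of the 10 canonical genes with a mean of 20 CPM, 9 lay below the trend on both plates, beside 35.9% of all genes, and none lay above it on both, beside 35.7%. Other translation genes lay below it often as well, 5 of 5 elongation genes, 17 of 26 initiation genes (65.4%) and 30 of 47 genes of the mitochondrial ribosome (63.8%), so this is not particular to the members. Rps14, Rps9, Rpl13a and Rpl7 lay far below, with CVs of 1.20 to 1.57 on plate 2 and 1.35 to 1.86 on plate 3. Rpl8, Rps3 and Rpl4 lay nearer to the trend, and the CVs of Rpl4 were 1.09 on plate 2 and 1.42 on plate 3. Rpl22 was the exception, with CVs of 3.13 and 3.23. Coding stretches were shared to 38.8 to 77.5% in Rps14, Rps9, Rpl13a and Rpl7. In Rpl8, Rps3 and Rpl4 the shares were 8.09 to 20.3%, and in Rpl22 31.0%. The part of shared sequence in the distance from the trend was not tested. With a minimum mean of 5 CPM, 27 of 30 canonical genes lay below, beside 35.9% of all genes, and the exceptions were Rpl22, Rps15a and Rpl27a.

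Between the plates, none of the 10 canonical genes with a mean of 20 CPM differed by 2-fold or more, beside 3.47% of all genes higher and 6.11% lower on plate 3. Their log2 ratios of plate 3 to plate 2 ran from -0.76 for Rpl22 to 0.18 for Rps9, with a median of -0.26 beside -0.03 over all genes. Among 35 rows with a mean of 5 CPM, the median log2 ratio was -0.016 beside -0.038 over all genes, so the lower median was not seen there. In that set 1 row was past 2-fold, Rpl15 with a log2 ratio of -2.42, beside 6.5% of all genes higher and 10.4% lower. Rpl15 reached 10 CPM in 16 cells of plate 2 and 2 cells of plate 3, and 1 cell held 18.1% of its reads. Over all 74 rows, whatever their level, the lowest ratios were those of Rpl15, Rps6 (-1.30), Rpl37a (-0.88), Rps24 (-0.76) and Rpl22, and the highest were those of Rpl35 (0.92), Rpl30.2 (0.81), Rpl41 (0.75), Rps25 (0.65) and Rpl26 (0.57). With 1 plate a side there is no replicate of this comparison.

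The 6 rows named as pseudogenes held 2206 reads, and 1769 of them lay in Rpl14-ps1. This processed pseudogene lies at chr7:45324965-45325617 on the plus strand and inside an intron of Trpm4, which runs on the other strand. Its parent Rpl14 had 791 reads, so 69.1% of the pair's reads (exact 95% interval 67.3 to 70.9%, counting error only) stood in the pseudogene row. The mean was 24.7 ± 44.2 CPM for the pseudogene and 11.4 ± 20.3 CPM for the parent, and the highest cells were at 346 and 115 CPM. Both rows had reads in 93 cells, the pseudogene alone in 23, the parent alone in 6 and neither in 128. If the rows were independent, 45.9 cells with reads in both would be expected. In 82 of the 93 cells the pseudogene row was the higher one, and its ratio to the parent had a median of 2.2 and quartiles of 1.57 and 3. Over cells the rows had a rho of 0.85 on plate 2 and 0.90 on plate 3, beside 0.15 for the closest canonical pair by the lower plate. A read that lies inside the identical run of 419 bases fits both rows, so the levels of Rpl14 and Rpl14-ps1 are uncertain.

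**Figure D5:**
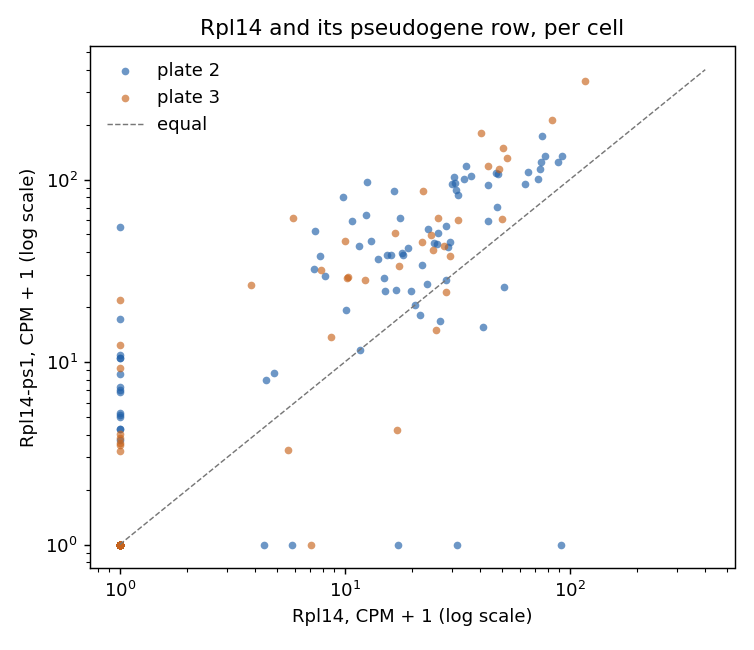
CPM + 1 of Rpl14-ps1 (vertical) against Rpl14 (horizontal), both log axes, 1 point per cell and coloured by plate, with the dashed line where both are equal. Cells with reads in both rows lie mostly above the line, and the cells at 1 on an axis have no read in that row.

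The Rps15a pairs looked different. Rps15a-ps6, at chr11:6172644-6173036 in an intron of Nudcd3 on the same strand, had 359 reads beside 1572 of Rps15a, or 18.6% (16.9 to 20.4%). Of its 19 cells, 11 had reads of the parent too, beside 7.83 expected if the rows were independent, and the rho was 0.10 and 0.091. Rpl31-ps12 likewise lies in an intron of Spag6l. The strand setting of the counting is not known here, so for these pseudogenes and for Rpl14-ps1 reads of the intron around them cannot be told apart from reads of the pseudogene by position. Rps15a-ps4 had 34 reads in 21 cells, 20 of which had reads of Rps15a, beside 8.65 expected if independent. Its rho with Rps15a was 0.36 and 0.38. Rps19-ps3 had 37 reads in 4 cells, 21 of them in 1 cell. Rpl31-ps12 had 7 reads in 2 cells, 6 of them in 1 cell, and Rpl34-ps1 had a read in 0 of 250 cells, which allows a share of cells with a read of up to 1.2% (3 of 250, counting error only).

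Paralogs are separate genes for a near copy of a canonical protein, and Rps27l, Rpl36al and Rpl7l1 had more reads than their partners. Per kb of exon, Rps27l (35.6 CPM) and Rpl36al (4.48) were also above Rps27 (3.64) and Rpl36a (1.28). Rpl7l1 (13.7) was below Rpl7 (21.5) on that scale. Rps27l had 1580 reads in 82 cells and Rps27 159 reads in 12. Rpl36al had 471 reads in 75 cells and Rpl36a 44 reads in 18. Rpl22l1 had 805 reads beside 2589 of Rpl22, but per kb of exon it had 19.8 CPM beside 18.2. Coding stretches were shared to 82.6% in Rpl22l1 and 31.0% in Rpl22. The pseudogene Rps4l had 770 reads beside 597 of Rps4x. Rps27 and Rpl36a had all coding stretches shared, beside 27.1% for Rps27l and 81.4% for Rpl36al. Rpl7l1 had 43.3 ± 142 CPM, with 3161 reads in 53 cells, beside 1963 reads in 115 cells for Rpl7. Rpl3l, known from striated muscle, had 118 reads in 6 cells, and Rpl10l, known from testis, had 7 reads in 4. Rpl39l and Rps27rt had 0 reads. All coding stretches of Rps27rt were shared (100%), so its 0 is subject to the same limit as that of Rpl34-ps1, while Rpl39l had 0% shared. Rpl22 and Rpl22l1, with reads in 74 and 90 cells, shared 24 cells, close to the 26.6 expected if they were independent. Their rho was -0.029 on plate 2 and -0.12 on plate 3.

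The 11 genes that only share the name were 10 kinases and Rps19bp1, which encodes a protein that binds Rps19. Rps6kb1 and Rps6kb2, the kinases that phosphorylate the ribosomal protein Rps6 below mTOR, had 53.1 ± 137 and 60.5 ± 135 CPM, and each had reads in 71 cells. Rps6 itself had 2.68 ± 16.1 CPM and reads in 20 cells, and 100% of its coding stretches were shared. Rps19bp1 had 25.0 ± 69.8 CPM, Rps6ka2 24.2 ± 74.4 CPM and Rps6ka4 21.3 ± 85.4 CPM. Rps6ka6 had 0 reads, and the remaining kinases had means of 0.330 to 19.2 CPM.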

How the data were processed

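Full-length cDNA of 250 sorted cells was sequenced. The authors' deposited table holds whole-number read counts per gene. The build mm10 and the aligner STAR 2.4.2a are named, per the submitters' processing notes. How reads were counted (tool, strand, annotation, reads that fit several places) and how cells were filtered are details not given in the sources used here. A second deposited table holds a score, the count scaled to 500000 per cell and rounded, and it was used only as an alternative. Without molecular identifiers reads are not independent molecules, and intervals cover counting error only.

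CPM is the count over the cell's total, times 1000000, and a gene was detected at 10 CPM. Exon length, positions and shared 50-base stretches came from GENCODE M21 (GRCm38). 72 of 74 canonical rows had an entry, coding sequence was the CCDS transcript where one exists, and only copies with an annotated transcript are seen. The CV trend was a lowess fit (fraction 0.1, statsmodels 0.14.6) and correlations were computed within each plate. The calculations were checked on simulated data. No test was run, and no cell was removed.

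The members and lists were chosen with earlier results of these data known. Named genes were the highest and lowest canonical rows by mean, by CPM per kb, by plate ratio and by CV against the trend, the closest pairs, the genes most like the sum, the paralogs, the pseudogenes and listed genes. Alternatives changed the detection level, scaling, depth, length, filters and cells. Some genes named by these rules, and the results that need them, are left out of the text and of figures with gene names.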

Additional observations from a re-analysis of the deposited data

How the results depend on the processing

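The mean summed canonical level was 955 to 1015.5 CPM under the 5 alternatives tried, beside 963 CPM. These thin or rescale the same counts or leave out a cell, so they could hardly move a mean by 1 SD between cells. The number of canonical rows detected in at least 50% of cells was 4 of 74 (5.92% of all genes), and became 10 at 1 read (7.97% of all genes), 1 at 50 CPM (4.28%) and 6 after thinning (6.81%). The canonical median of 3.66 CPM per kb was 1.89 with exon length from all transcripts. It was 9.55 per kb of coding sequence and 8.58 per kb of exon whose stretches are in no other gene. The median over all genes was not recomputed with these lengths, so the comparison with it was not repeated. The rho of mean CPM with the shared percentage was -0.72 with stretches of 30 bases, -0.66 with 100 bases and -0.56 per kb of unshared exon. The rho of the sum with genes detected, 0.0030 as the mean of both plates, was -0.020 without Malat1 and Rn45s in the total, -0.033 with size factors, 0.027 with cells thinned to 100000 reads, 0.048 without the 2 farthest cells and -0.017 without the 4 highest rows. As Pearson's r it was -0.16, and -0.044 without those cells. The mean pair rho of 0.021 was 0.011 after thinning. The spread count of 9 of 10 was 27 of 30 at a minimum of 5 CPM, and the plate count of 0 was 1 of 35. The share of Rpl14-ps1 was 71.1% on plate 3 alone. That of Rps15a-ps6 was 12.9% on plate 2 and 24.1% on plate 3, and that of Rps19-ps3 fell from 7.23% to 3.38% without 1 cell. The measures of shared sequence, the coding length, the unshared exon and the cells and rows left out were added after seeing the data. The causes were not tested. No paired analysis was possible because there is 1 group of cells.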
